A study of Homo sapiens with 6 samples.

Results

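The genes examined were the 9 spectrin, protein 4.1 and ankyrin genes *SPTAN1*, *SPTBN1*, *SPTBN4*, *EPB41*, *EPB41L1*, *EPB41L2*, *EPB41L3*, *ANK2* and *ANK3*, out of 60655 genes in the count table. They were found in the table by gene name. They were selected on known values of the contrast of IGF2BP3 IP and IgG IP, so everything given below for these 9 genes in that contrast is a description and not a test. The data are RNA immunoprecipitation sequencing (RIP-seq) of WaGa, an established Merkel cell carcinoma (MCC) cell line, labelled wild type and untreated. RNA that came down from lysate with an antibody against the RNA-binding protein IGF2BP3 (3 libraries, named IMP3 in the table after an older name of the protein) was sequenced beside RNA that came down with control IgG (3 libraries). All 6 libraries came from this 1 line, and no library of input RNA was used here, so an mRNA that is more abundant in the lysate and one that is bound more often per molecule cannot be told apart in a single IP.

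Spectrins are long rod proteins. An alpha and a beta chain pair side by side, join head to head into a flexible tetramer, and form a net under the plasma membrane that is tied to short actin filaments. Proteins of the 4.1 family stabilise the joint between spectrin and actin, and ankyrins fasten beta spectrin to membrane proteins such as ion channels, transporters and cell adhesion molecules. In neurons and other excitable cells this skeleton holds channels and adhesion molecules in place. IGF2BP3 is known to bind mRNA through its KH domains and to read clusters of CA-rich and GGC elements.

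To show what such elements look like in these mRNAs, the coding sequence of each canonical transcript (GENCODE version 44, GRCh38) was searched on the sense strand for the 30-base window that held the most of both CACA and GGC, overlapping matches counted. The windows of the 2 mRNAs past the thresholds used below (*SPTBN1* and *EPB41L3*) and of a paralog of each are printed 5′ to 3′ to let the mRNAs that differed and those that did not be read side by side, with the letters of both motifs in capitals. A CACA and a GGC stood together in 4.36% of all 1139899 windows of 30 bases cut end to end from the coding sequences of the annotation. The printed windows were instead picked as the best over all start positions of a long coding sequence. That share therefore does not say how often such a pick holds both motifs.

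*SPTBN1*, exon 23, chr2:54646361-54646390, plus strand: cCACAGGCGGCtggaggaGGCgCACAgGGC

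*SPTBN4*, exon 31, chr19:40568149-40568178, plus strand: cacgaGGCGGCACACAgccttaccctgGGC

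*EPB41L3*, exon 12, chr18:5419843-5419872, minus strand: ggtactGGCcagtacgcCACAacaaaaGGC

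*EPB41*, exon 2, chr1:28987452-28987481, plus strand: gagtttagtgactgaGGCcgaaaattCACA

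The window of *SPTBN1* held 2 CACA and 4 GGC, and that of *SPTBN4* 2 and 3. *EPB41L3* had 1 CACA and 2 GGC, and *EPB41* had 1 of each. Over whole transcripts, CACA occurred 5.19 times per kb in *SPTBN1* and 5.38 times per kb in *EPB41L3*, against 3.48 in *SPTBN4* and 5.64 in *EPB41*, with a median of 4.29 over the tested coding genes. GGC occurred 18.4 times per kb in *SPTBN1*, 12.3 in *EPB41L3*, 45.0 in *SPTBN4* and 14.6 in *EPB41*, with a median of 16.6. Thus CACA was denser in *SPTBN1* than in its paralog and slightly sparser in *EPB41L3* than in its own, and GGC was sparser in both than in the paralog. These are counts of letters and not binding sites.

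The libraries held between 9758759 and 14886414 counts on genes. The 10 MCC markers checked (*ATOH1*, *SOX2*, *ISL1*, *INSM1*, *POU4F3*, *KRT20*, *CHGA*, *SYP*, *ENO2* and *NEFM*) lay between 26.7 and 771 TPM in every library, with log2 fold changes from -0.13 to 0.24 between the IPs. *KRT14* and *PTPRC* had 0 counts in every library, *HBA1* 0 counts and at most 1.94 TPM, *KRT5* 4 to 11 counts, *COL1A1* at most 2, and the red cell gene *SLC4A1* at most 2. Replicate 1 stood apart in each group. Between libraries, chi-square over its degrees of freedom was 18.5 or 19.7 between IgG replicate 1 and the other IgG libraries and 2.13 between those 2, and in the IGF2BP3 libraries it was 16.3 or 18.6 against 3.06. Values without replicate 1 are therefore given where they change a statement.

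Of the 3 spectrin chains, *SPTBN1* passed the thresholds for a higher level with IGF2BP3, and *SPTAN1* and *SPTBN4* did not. For *SPTBN1* and *SPTAN1* every IGF2BP3 value exceeded every IgG value, an order that 12.0% of all tested genes had. *SPTBN1* (ENSG00000115306, chromosome 2, 54456317 to 54671446, plus strand) encodes beta-II spectrin, the widely expressed beta chain. Its counts were 209, 420 and 353 in IgG replicates 1 to 3 and 464, 538 and 537 in the IGF2BP3 libraries. Scaled to library size (TMM-normalized CPM, counts per gene brought to 1 common library size), these were 22.7, 28.1 and 28.5 against 39.0, 40.6 and 43.6. The lowest IGF2BP3 library lay well above the highest IgG library. The means were 26.4 ± 3.27 (SD, n = 3) in the IgG libraries and 41.1 ± 2.38 (SD, n = 3) in the IGF2BP3 libraries, and the fitted log2 fold change was 0.63 (standard error 0.12), or 1.55-fold. A fold of 1.5, the minimum used for calls, is a log2 of 0.585, so *SPTBN1* lay above it by less than its standard error. Without both replicate 1 libraries the estimate was 0.576, just under it.

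*SPTAN1* (ENSG00000197694, chromosome 9, 128552558 to 128633662, plus strand) encodes alpha-II spectrin, the only alpha chain that most cells outside the red cell lineage make. Its normalized CPM were 17.7, 19.4 and 18.1 in the IgG libraries and 22.8, 27.3 and 23.4 in the IGF2BP3 libraries. The groups did not overlap, and the gap between them was smaller than for *SPTBN1*. The log2 fold change was 0.41 (standard error 0.12), or 1.33-fold, under the fold minimum. In the TPM values the direction turned, to -0.08 on the log2(TPM + 1) scale, as described with the levels below. *SPTAN1* overlaps *DYNC2I2* on the other strand by 10 bases, whose counts ran from 296 to 464 with a log2 fold change of 0.21.

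*SPTBN4* (ENSG00000160460, chromosome 19, 40466241 to 40576464, plus strand) encodes beta-IV spectrin, known from axon initial segments and nodes of Ranvier. Its normalized CPM were 11.8, 14.3 and 15.2 in the IgG libraries and 13.0, 13.3 and 15.9 in the IGF2BP3 libraries. The groups overlapped over nearly their whole range. The log2 fold change was 0.02 (standard error 0.15), and it was -0.20 with a correction for GC content, of which *SPTBN4* has 66.2%, more than 97.6% of tested coding genes.

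**Figure D1:**
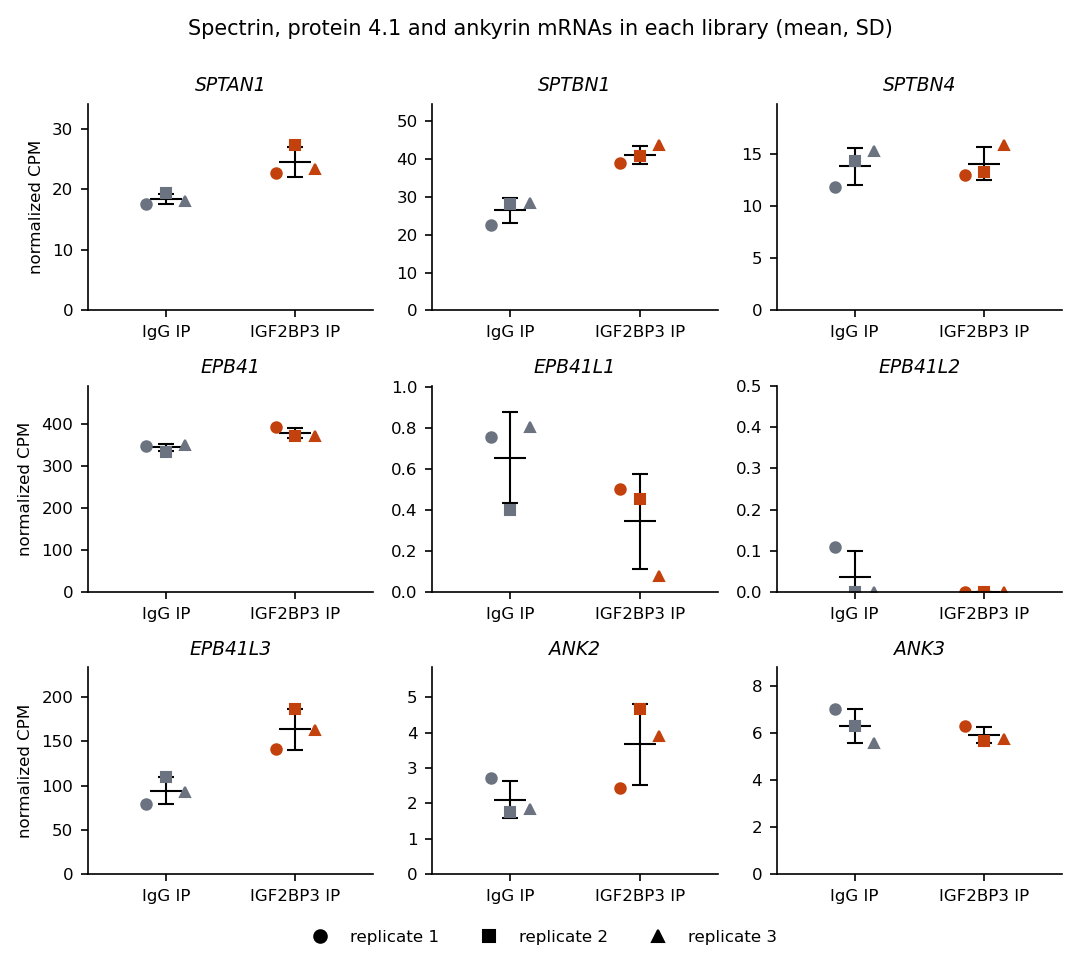
Normalized CPM (y axis, from 0) of each gene in the 3 IgG and 3 IGF2BP3 libraries, with points shaped by replicate number, a horizontal mark at the mean and bars for the SD. *SPTBN1*, *SPTAN1*, *EPB41L3* and *EPB41* have every IGF2BP3 IP point above every IgG IP point, while *SPTBN4*, *ANK2* and *ANK3* overlap and *EPB41L2* is at or near 0.

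Of the protein 4.1 genes, 2 were abundant and 2 were barely detected. *EPB41L3* (ENSG00000082397, chromosome 18, 5392381 to 5630700, minus strand) encodes protein 4.1B, also known as DAL-1 and described as a tumor suppressor in other cancers. It had 733, 1645 and 1154 counts in the IgG libraries and 1684, 2475 and 1997 in the IGF2BP3 libraries. The normalized CPM were 79.5, 110 and 93.1 against 141, 187 and 162, so the groups stood apart even though replicate 1 was the lowest library in both. The means were 94.3 ± 15.4 (SD, n = 3) and 164 ± 22.8 (SD, n = 3), and the log2 fold change was 0.79 (standard error 0.14), or 1.73-fold. Within same-numbered libraries the log2 differences were 0.83, 0.76 and 0.80, which varied less than the levels did.

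*EPB41* (ENSG00000159023, chromosome 1, 28887091 to 29120046, plus strand) encodes protein 4.1R, the founding member of the family, first known from red cells. It carried the most counts of the 9 genes, 3207, 4991 and 4356 in the IgG libraries and 4687, 4927 and 4572 in the IGF2BP3 libraries. Its normalized CPM were 348, 334 and 351 against 393, 372 and 372. The groups did not overlap, but the log2 fold change was 0.14 (standard error 0.07), or 1.10-fold. Within same-numbered libraries the log2 differences were 0.18, 0.15 and 0.08, all small beside those of *EPB41L3*. The share of the 9 genes' counts that lay on *EPB41* was 71.0%, 64.9% and 68.3% in the IgG libraries and 63.6%, 57.2% and 59.3% in the IGF2BP3 libraries.

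*EPB41L1*, which encodes the neuronal protein 4.1N, had 7, 6 and 10 counts in the IgG libraries and 6, 6 and 1 in the IGF2BP3 libraries. *EPB41L2*, which encodes the widely expressed protein 4.1G, had 1 count in IgG replicate 1 and 0 in the other 5 libraries. A count of 0 allows up to 3 counts, between 0.201 and 0.252 normalized CPM in those 5 libraries, and covers counting error only. Neither gene passed the expression filter, and no fold change is given for them. The other 7 genes passed.

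Both ankyrins had low counts, and neither passed the thresholds with all 6 libraries and condition only. *ANK2* (ENSG00000145362, chromosome 4, 112818032 to 113384221, plus strand) encodes ankyrin-B, which anchors transporters and channels in neurons and heart muscle. It had 25, 26 and 23 counts in the IgG libraries and 29, 62 and 48 in the IGF2BP3 libraries, or 2.71, 1.74 and 1.86 against 2.43, 4.68 and 3.90 normalized CPM. IGF2BP3 replicate 1 lay below IgG replicate 1, so the groups overlapped. The log2 fold change of 0.83 (standard error 0.31) was the largest of the 7 in size and the least precise. Within same-numbered libraries it was -0.15, 1.43 and 1.07. Under a replicate block *ANK2* passed the thresholds in edgeR but not in DESeq2, which gave it no adjusted p. Without both replicate 1 libraries *ANK2* passed them too, at a log2 fold change of 1.26 (edgeR adjusted p = 0.00695). That fit called 466 genes higher over the whole table. A pseudogene on the other strand within *ANK2*, ENSG00000196656, had 7 to 20 counts and a log2 fold change of -0.89.

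*ANK3* (ENSG00000151150, chromosome 10, 60026298 to 60733490, minus strand) encodes ankyrin-G, which gathers sodium channels at the axon initial segment. It had 65, 94 and 69 counts in the IgG libraries and 75, 75 and 71 in the IGF2BP3 libraries, or 7.05, 6.30 and 5.57 against 6.30, 5.66 and 5.77 normalized CPM. The 2 groups covered much the same range. The log2 fold change was -0.09 (standard error 0.17).

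In all, 2 of the 7 genes that passed the filter, *SPTBN1* and *EPB41L3*, were called higher in the IGF2BP3 libraries (edgeR quasi-likelihood test, at least 1.5-fold, with adjusted p under 0.05 after Benjamini-Hochberg over all 14507 tested genes), where 1.16% of all tested genes were. None of the 7 was called lower, where 0% of all tested genes were (0 of 14507). At an unadjusted p under 0.05, 3 of the 7 were at least 1.5-fold higher and 0 lower, and of all tested genes 558 and 59, and DESeq2 called 0 lower as well. For 4 of the 7 the lowest IGF2BP3 IP value exceeded the highest IgG IP value, as for 12.0% of all tested genes. The reverse held for 0 of the 7 and for 8.69% of all tested genes. The median log2 fold change of the 7 was 0.41, against -0.01 over all tested genes. Since the group was put together with this comparison known, nothing is read from these shares. The 2 calls depended on single libraries. With replicate 2 or replicate 3 of either group left out, 0 of the 7 were called, and without IgG replicate 1 only *EPB41L3* was. Calls fell over the whole table in these fits, from 169 genes to 19 and 7 without IgG replicates 2 and 3, 0 and 23 without IGF2BP3 replicates 2 and 3, and 134 without IgG replicate 1. Over those fits the log2 fold changes still lay between 0.54 and 0.69 for *SPTBN1* and between 0.68 and 0.92 for *EPB41L3*.

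**Figure D2:**
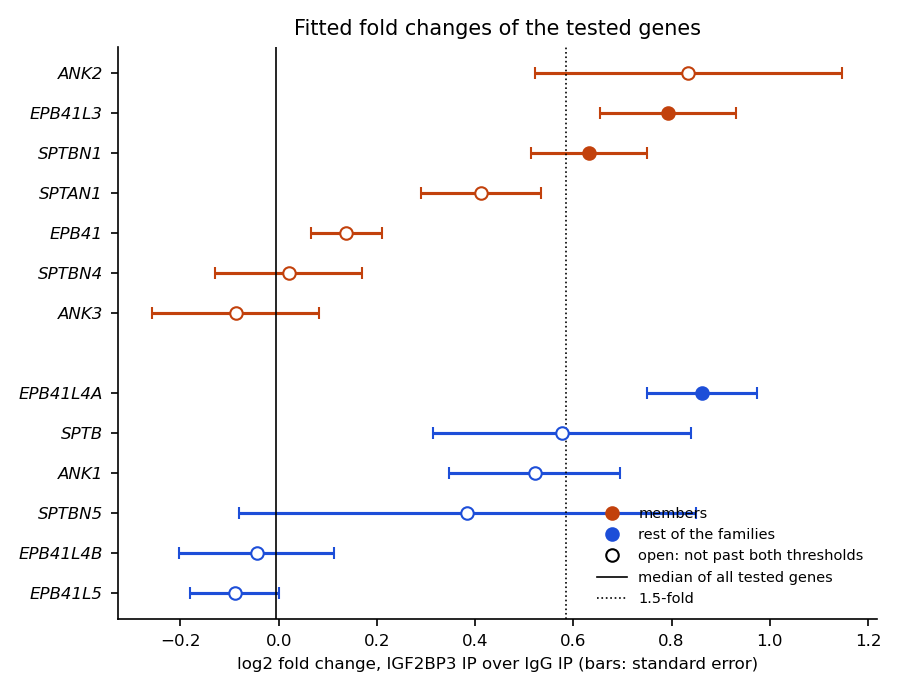
Fitted log2 fold change of IGF2BP3 IP over IgG IP (x axis) with its standard error for the 7 tested members (orange) and 6 further genes of the 3 families (blue). Filled points passed both thresholds, and *EPB41L3* at 0.79 and *SPTBN1* at 0.63 are the filled members, while *SPTBN4* at 0.02 lies near the median of all tested genes and *EPB41* at 0.14 above it.

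Levels of different genes were compared per length, in the authors' TPM. In the IgG libraries the order was *EPB41* (77.2 ± 14.0), *EPB41L3* (63.9 ± 18.3), *SPTBN4* (6.54 ± 1.34), *SPTAN1* (5.96 ± 1.19), *SPTBN1* (4.53 ± 1.18), *ANK3* (3.54 ± 1.33), *ANK2* (0.577 ± 0.154), *EPB41L1* (0.527 ± 0.211) and *EPB41L2* (0.107 ± 0.185), as mean TPM ± SD (n = 3). The ranges of *EPB41* and *EPB41L3* overlapped, as did those of each neighbouring pair from *SPTBN4* down to *ANK3* and those of *ANK2* and *EPB41L1*. The protein 4.1 pair thus stood clear of the spectrins, which stood in no firm order among themselves. *EPB41* and *EPB41L3* were above 88.5% and 86.5% of tested genes, and *SPTAN1*, *SPTBN1* and *SPTBN4* above 41.7%, 36.3% and 43.6%.

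Within the families the genes took different shares in the 2 IPs. In the IGF2BP3 libraries *EPB41L3* had 130 ± 30.1 TPM and *EPB41* 94.2 ± 13.8 (mean ± SD, n = 3). *EPB41L3* made up 41.3%, 47.9% and 44.6% of the TPM of the 4 protein 4.1 genes in the IgG libraries and 54.8%, 59.3% and 58.8% in the IGF2BP3 libraries, where it stood above *EPB41* in 3 of 3 libraries. In normalized CPM *EPB41* had the higher mean there, 379 against 164 for *EPB41L3*. The order in TPM therefore rests on the lengths used, a median of 1565 bases for *EPB41L3* and 4863 for *EPB41*, as described below. The share of *SPTBN1* in the TPM of *SPTBN1* and *SPTBN4* together was 39.5%, 43.6% and 39.0% in the IgG libraries and 54.4%, 52.3% and 46.6% in the IGF2BP3 libraries. Both shares were higher in every IGF2BP3 library. The ratio of alpha to beta spectrin, *SPTAN1* over those same beta chains, was 0.747, 0.365 and 0.580 in the IgG libraries and 0.435, 0.393 and 0.428 in the IGF2BP3 libraries, with overlapping groups. *ANK2* made up 23.1%, 12.4% and 9.90% of the TPM of *ANK2* and *ANK3* together in the IgG libraries and 38.4%, 37.6% and 29.4% in the IGF2BP3 libraries, on few counts. In replicate 1 the counts of *ANK2* and *ANK3* were 25 and 65 with IgG and 29 and 75 with IGF2BP3. The length used for *ANK2* there was 3558 bases with IgG and 1605 with IGF2BP3. The *ANK2* shares in TPM therefore rest on these lengths as well as on the counts.

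**Figure D3:**
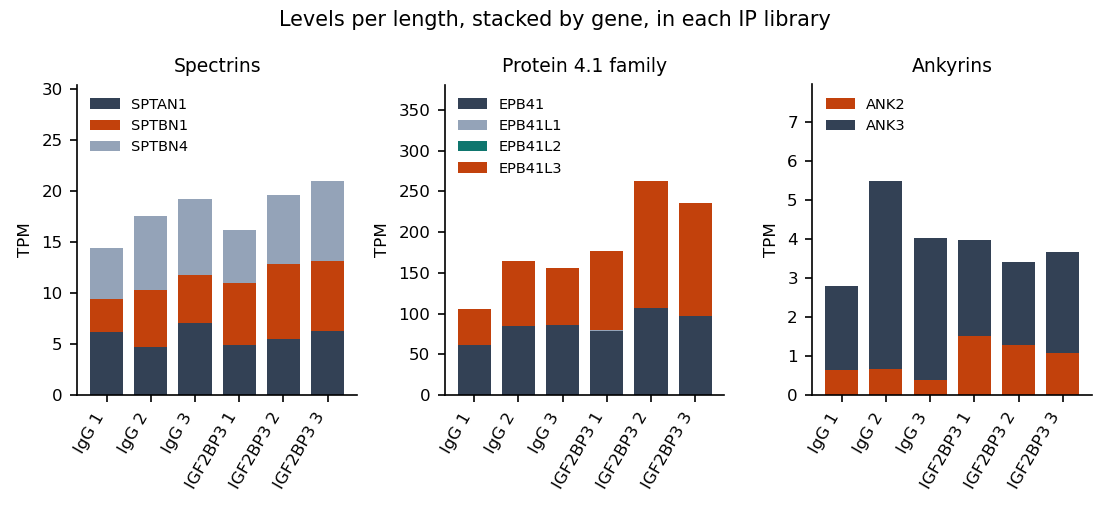
Transcript levels per length (TPM, y axis, from 0) of the spectrin, protein 4.1 and ankyrin genes, stacked by gene in each IgG and IGF2BP3 library, numbered by replicate. *EPB41L3* is the smaller part of its column in the 3 IgG libraries and the larger part in the 3 IGF2BP3 libraries, and *EPB41L1* and *EPB41L2* are too low to be seen.

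The TPM of *SPTAN1* and *ANK3* moved in ways their counts did not. *SPTAN1* had 6.16, 4.68 and 7.03 TPM in the IgG libraries and 4.89, 5.51 and 6.28 in the IGF2BP3 libraries, with overlapping groups, although its normalized CPM did not overlap. *ANK3* had 2.16, 4.82 and 3.64 TPM against 2.45, 2.14 and 2.60. TPM and FPKM divide by a length that the authors' program estimates from the isoforms it assigns. The length implied by count and FPKM was 2442, 5004 and 3101 bases for *SPTAN1* in the IgG libraries and 4663, 6499 and 4743 in the IGF2BP3 libraries. For *ANK3* it was 2775, 1575 and 1836 bases against 2576, 3447 and 2818. For *ANK2* it was 3558, 3119 and 5639 bases against 1605, 4731 and 4598. For *EPB41L3* it was steadier, between 1460 and 1692 bases in all 6 libraries, and for *EPB41* between 4575 and 4985. The counts and TPM do not rest on 1 assignment of reads (*HBA1* above had TPM without counts), so this length also takes in differences between them. It changed between libraries for *SPTAN1*, *ANK3* and *ANK2* and hardly for the protein 4.1 pair. The length of 1565 bases (median) for *EPB41L3* was also well under its canonical transcript of 4459 bases. For *SPTBN4* it was 2515 bases (median) against 8910. Which isoforms came down was not tested.

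Apart from the values that chose them, the 9 genes share large genes and many-exon mRNAs with long coding sequences. Whole canonical transcripts were not all long. Those of *EPB41L2* (4380 bases) and *EPB41L3* (4459) were above 63.5% and 64.5% of tested coding genes, whose median was 3487. The gene spans ran from 81.1 kb for *SPTAN1* to 707.2 kb for *ANK3*. The canonical transcripts had from 20 exons in *EPB41L2* to 57 in *SPTAN1*, against a median of 9 over the tested coding genes. Coding lengths were 7434 bases for *SPTAN1*, 7095 for *SPTBN1* and 7695 for *SPTBN4*, each above 98.2% of tested coding genes or more, and 2595 to 3264 bases for the protein 4.1 genes, against a median of 1428. The ankyrins were longer still, with 11874 coding bases in *ANK2* and 13134 in *ANK3*. The 3′ untranslated region varied from 328 bases in *SPTAN1* to 3548 in *ANK3*. *SPTBN1* and *SPTBN4*, with coding sequences of similar length, had log2 fold changes of 0.63 and 0.02. With a per-library correction for length *SPTBN1* came to 0.53, under the 1.5-fold minimum, and *EPB41L3* to 0.82.

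**Figure D4:**
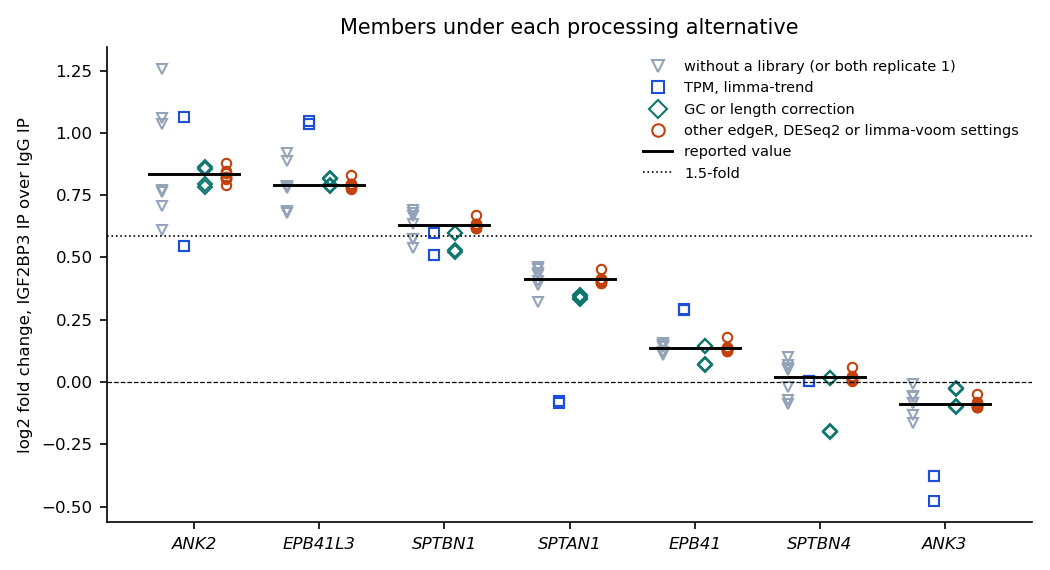
Log2 fold change of IGF2BP3 IP over IgG IP (y axis) of the 7 tested members under each processing alternative, with the reported value as a black line and the 1.5-fold minimum dotted. *EPB41L3* stays between 0.68 and 1.05, *SPTBN1* straddles the minimum, *SPTAN1* turns negative with TPM values, and *SPTBN4* turns negative with the GC correction.

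The rest of the 3 families, 8 further genes listed by family membership, gave 1 call, where 1.16% of all tested genes were called higher. *EPB41L4A*, a more distant member of the 4.1 family, was higher in the IGF2BP3 libraries by 0.86 on the log2 scale (standard error 0.11, edgeR adjusted p = 0.0122). Its normalized CPM were 16.0, 16.6 and 16.9 in the IgG libraries and 29.1, 32.4 and 28.5 in the IGF2BP3 libraries, with a clear gap between the groups. Its call was lost without IgG replicate 2 or 3 or IGF2BP3 replicate 2 or 3, with adjusted p-values from edgeR between 0.0769 and 0.11, at log2 fold changes between 0.80 and 0.88. *SPTB*, the red cell beta chain, had a log2 fold change of 0.58 (edgeR adjusted p = 0.408), *ANK1*, the red cell ankyrin, 0.52 (0.238) and *SPTBN5* 0.38 (0.785). *EPB41L4B* and *EPB41L5* had -0.05 (adjusted p = 0.942) and -0.09 (0.73). Of the 8, 7 were tested, with a median of 0.38.

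The proteins that the skeleton ties together gave 0 calls with edgeR in the 4 lists examined, with all 6 libraries and condition only. At an unadjusted p under 0.05, 3 of their genes were at least 1.5-fold higher and 0 lower, as were 558 and 59 of all 14507 tested genes. DESeq2 called 2, *NFASC* and *CADM3*, and edgeR without both replicate 1 libraries called the same 2. Those fits called 281 and 466 genes higher over the whole table. Of 14 genes at the junction with actin, 11 were tested, with a median log2 fold change of 0.06. *ACTB* and *ACTG1*, the cytoplasmic actins, had 0.16 (edgeR adjusted p = 0.423) and 0.10 (0.624). *ADD2*, an adducin that caps the junction, had the highest value, 0.31 (adjusted p = 0.288), and *TMOD1*, a tropomodulin that caps the pointed ends of actin filaments, the lowest, -0.44 (0.29).

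Of 17 membrane proteins known to be held by ankyrin or protein 4.1, 13 were tested, with a median of 0.23, and 12 of the 13 values were above 0, as were 48.9% of all tested genes. In 3 of the 13 every IGF2BP3 library lay above the IgG libraries, as in 12.0% of all tested genes. *NFASC*, neurofascin, an ankyrin-bound adhesion molecule, had the highest value, 0.78 (standard error 0.18, edgeR adjusted p = 0.0914), and each of its IGF2BP3 libraries lay above each IgG library. *CADM2* had the lowest, -0.07 (0.872). *CD44*, the most abundant of the list at 356 TPM in the IgG libraries, had 0.35 (0.462), and *ATP1B1*, a sodium pump subunit, 0.13 (0.656). *NFASC* also passed the thresholds under a replicate block, both in edgeR and in DESeq2.

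Of 9 ERM proteins and MAGUK scaffolds, 8 were tested, with a median of -0.03. *EZR* and *RDX*, ezrin and radixin, which share a FERM domain with protein 4.1, both had -0.03 (edgeR adjusted p = 0.924 and 0.931). *NF2* (merlin) had 0.26 (0.33) and *DLG2* -0.37 (0.679). Of 7 genes listed under calpain, which cuts spectrin, and calmodulin, which binds to it and to its partners, 5 were tested, with a median of 0.28. *CAPNS1*, the small calpain subunit, had 0.59 (edgeR adjusted p = 0.071), while *CALM2*, a calmodulin gene, had -0.20 (0.419). Over all 55 listed genes, 44 were tested, 1 was higher and 0 lower, where 1.16% and 0% of all tested genes were. When edgeR was fitted with a replicate block, 5 were higher (*SPTB*, *EPB41L4A*, *NFASC*, *CADM3* and *CAPNS1*) and 0 lower, in a fit that called 517 genes higher over the whole table. DESeq2 with the block called 3 of them. Among the 44 tested genes, every IGF2BP3 library lay above every IgG library for 12 and below for 3, *TMOD1* and *CALM2* among these 3. Of all tested genes 12.0% and 8.69% had these orders.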

How the data were processed

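The 6 RIP-seq libraries of WaGa cells (3 per antibody) were grouped by their labels, which call the replicates independent without saying what was separate, so p-values measure the spread between these libraries. Per the labels, the submitters' processing notes and the authors' methods, reads were aligned to GRCh38 with STAR 2.7.9a. RSEM and GENCODE version 37 were used to quantify transcripts, and unnormalized read counts per gene were deposited. TPM and FPKM values were also deposited by the authors. Which program made the deposited counts, and its use of strand, are not given in the sources used here.

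All genes were filtered (filterByExpr), TMM-normalized and tested with edgeR 4.0.16 (quasi-likelihood, R 4.3.3), condition only, on 14507 genes. Calls needed a fold change of at least 1.5 and an adjusted p under 0.05. Standard errors are the log2 fold change over the root of F. On simulated counts over 14524 genes, 87.9% of 2-fold and 62.6% of 1.75-fold changes were recovered at an adjusted p under 0.05. The simulation had 1 common dispersion and no difference of replicate 1, and its count of recovered genes used no fold minimum. These shares are therefore not rates for the calls made here. Alternatives were DESeq2 1.42.0, limma 3.58.1, other scalings and filters, loess corrections (span 0.5) for GC content and length, and left-out libraries. A fit without replicate 1 in both groups was added after seeing the data.

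Same-numbered libraries deviated together (r across genes 0.60, 0.32 and 0.26), though the crossed pairs of replicates 2 and 3 did too (0.31 and 0.30), so a replicate block was fitted. Named genes were the 9 members, the rest of their families, and from each other list the called genes, the 2 most abundant and the highest and lowest log2 fold change. Some genes that this rule covers are not reported here. *CADM3* was named after its values were seen. Members and lists were chosen with earlier results of these data known. Coordinates, exons and sequences came from GENCODE version 44.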

Additional observations from a re-analysis of the deposited data

How the results depend on the processing

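Against 2 members and 1 listed partner gene called higher, among 169 genes over the whole table, the counts were 2 and 3 with DESeq2, with DESeq2 and the replicate block, and without a filter on low counts (281, 321 and 359 over the whole table). With the replicate block in edgeR, and with replicate 1 as a term, they were 3 and 5 (517 and 537), and the block changed no other call among the named genes. The GC correction gave 1 and 1 (92), with the replicate block 3 and 3 (314), and the length correction gave 1 and 2 (209), with the replicate block 2 and 4 (488). *SPTBN1* was the member lost with the GC correction alone and with the length correction. On TPM values with limma-trend, and at a 2-fold minimum, both counts were 0 (0 and 49 over the whole table). The median of all genes shifted by 0.11 on log2(TPM + 1), and at an unadjusted p under 0.05 1 member was still 1.5-fold higher with limma-trend (2 with a pseudocount of 0.1). Leaving out libraries gave 0 to 2 members and 0 to 3 partner genes. Without both replicate 1 libraries the 2 members were *EPB41L3* and *ANK2*, and the 3 partner genes were *EPB41L4A*, *NFASC* and *CADM3*. None was called lower under any of these settings. Both counts stayed at 2 and 1 with limma-voom, without a fold minimum, with 3 other scalings, and with 10 counts required in each library.

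Of 7 members, *SPTAN1* changed sign with TPM values (-0.076 on log2(TPM + 1), with or without a filter, and -0.086 on log2(TPM + 0.1)) and *SPTBN4* with the GC correction (-0.20 alone, -0.20 with the replicate block), and *SPTBN4* ran from -0.089 to 0.10 with libraries left out. Other named genes near 0 changed sign without a call. With library totals *EZR* and *RDX* were at 0.0093 and 0.010. On both TPM scales *EZR* was at 0.14, *RDX* at 0.15, *CADM2* at 0.067 and 0.069, and *EPB41L4B* was at 0.13 and 0.16. With the GC correction, without and with the block, *RDX* was at 0.10 and 0.10 and *CADM2* at 0.088 and 0.092. With libraries left out, *EZR* ran from -0.074 to 0.021, *RDX* from -0.085 to 0.024, *EPB41L4B* from -0.14 to 0.064 and *CADM2* from -0.19 to 0.035. The causes were not tested. *EPB41L1* and *EPB41L2* had too few counts for a fold change under the filter.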
